A study of Caenorhabditis elegans with 8 samples.

Results

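The comparison described here set the array labelled ash-2 RNAi against the array labelled control RNAi in the Caenorhabditis elegans strain NR350, a strain whose labels give muscle as the site of the RNAi. It was described over protein-coding features of the array that carry a single gene symbol and have a mean intensity above 32 over all 8 arrays of the series. These were 7732 of 27792 features and covered 7724 genes. A further 11115 protein-coding features with 1 symbol were at or below that intensity, close to the floor of the arrays, and 0 of them were 2-fold apart between the NR350 arrays. The study fed 4 strains, NR350, N2, VP303 and TU3401, with bacteria for ash-2 RNAi or control RNAi for 3 days, from egg to young adult, with stocks kept at 20 °C. Each strain has 1 array per RNAi treatment.

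ASH-2 is a subunit of the COMPASS-type complexes that methylate lysine 4 of histone H3, a mark found at the starts of active genes. RNAi lowers a transcript with double-stranded RNA, here supplied in the diet. NR350 is known as a strain that carries a defective rde-1, the Argonaute protein that starts the RNAi response, and a transgene that restores rde-1 from the hlh-1 promoter, which is active in body wall muscle. The transgene carries a sur-5 based fluorescent marker. N2 is the wild type, VP303 restores rde-1 in the intestine, and TU3401 restores the double-stranded RNA channel sid-1 in neurons.

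RNA was extracted from worms, so the NR350 arrays measured all tissues together. In such RNA, fewer cells of a type and less transcript per cell cannot be told apart. The array labelled ash-2 and the control array of NR350 had 1387 and 1086 units of unc-54, the main body wall muscle myosin. They had 1792 and 1883 units of act-5, an intestinal actin, and 2027 and 2002 units of snb-1, the synaptic vesicle protein synaptobrevin. For gld-1, a germline RNA regulator, the values were 4512 and 4285. The sperm genes spe-9, spe-11 and gsp-3 were under 32 units on both. Transcripts of muscle, gut, neurons and germ line were thus all present, and hlh-1 itself, whose promoter drives the transgene, was below the intensity minimum on every array.

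Of the known parts of the NR350 transgene, the sur-5 marker was high and rde-1 was not. sur-5 had 4245 units on the NR350 array labelled ash-2 and 4214 on the NR350 control array, against 272 to 436 on the other 6 arrays. rde-1 had 51.6 units on the NR350 array labelled ash-2 and 49.6 on the NR350 control array. That was no higher than in N2, with 61.3 and 56 units on the same 2 kinds of array, and far below VP303, with 339 and 305. The target gene went against its label. ash-2 had 269 units on the NR350 array labelled ash-2 and 145.6 on the NR350 control array, a difference of 0.89 on the log2 scale, or 1.85-fold higher. In the other strains the array labelled ash-2 also had the higher ash-2 signal, by 0.29 in N2, 0.65 in VP303 and 0.69 in TU3401. The NR350 difference was above that of the other strains by 0.34 ± 0.28 (SE), which did not pass the test (limma, adjusted p = 1). No source used here gives which probes of the feature lie within the RNAi trigger, so the signal cannot check the knockdown. All directions below rest on the array labels.

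Each NR350 treatment has 1 array, so differences within NR350 have no replicate error and no test, and all log2 differences are the array labelled ash-2 minus the control array. Over the 7732 members the median difference was -0.002, with a standard deviation over genes of 0.25, and 49.4% were above 0. A total of 6 genes were at least 2-fold higher on the array labelled ash-2 (0.0776% of members) and 8 were at least 2-fold lower (0.103%). At 1.5-fold, 60 were higher (0.776%) and 105 lower (1.36%), 165 in all (2.13%), and at 2-fold the 14 made up 0.181%. Just inside the 2-fold limit lay F55G11.8 at 2.04-fold higher and rpm-1 at 2.00-fold lower, and just outside lay Y45G5AL.1 at 1.90-fold higher and sydn-1 at 1.99-fold lower. Because of the floor, a fold of a dim gene is understated. With 16 units, a value just under the floor, taken off every intensity, 12 genes were 2-fold higher and 27 lower.

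**Figure D1:**
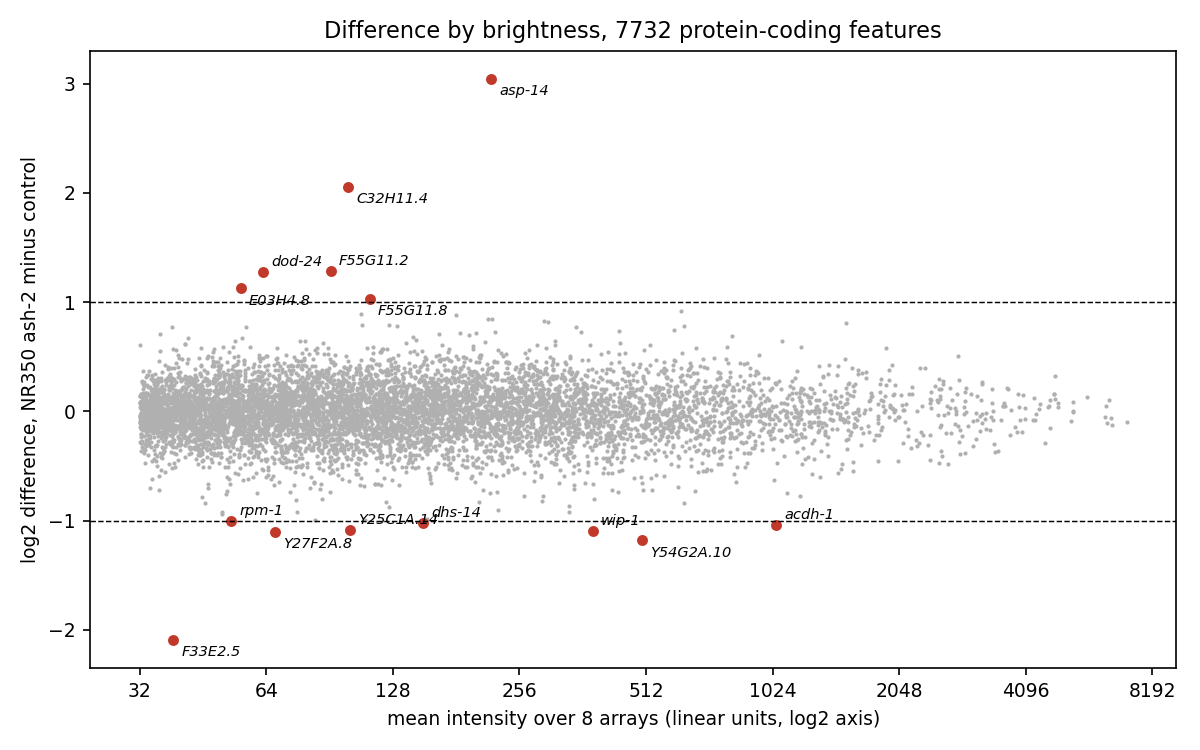
NR350 log2 difference of each member, array labelled ash-2 minus control array (vertical axis), against its mean intensity over 8 arrays (horizontal axis, log2 scale, linear intensity units). Most points lie within 1.5-fold, and the genes named at 2-fold include the dim F33E2.5 and the bright acdh-1 below 0 and asp-14 far above 0.

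Differences past 1.5-fold were found at all levels of signal, as the plot of difference against intensity shows. They made up 1.65% of the 2188 members between 32 and 64 units and 2.81% of the 1604 between 256 and 1024 units. Of the 6 genes at least 2-fold higher, 0 had a mean above 256 units, and of the 8 lower, 3 did.

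The genes highest on the array labelled ash-2 were a protease gene and genes known to respond to infection in the gut. asp-14, of the aspartyl protease family, had 398 units on the NR350 array labelled ash-2 and 48.2 on the NR350 control array, an 8.26-fold difference (3.05 on the log2 scale). The other arrays labelled ash-2 had 351 units in N2, 211 in VP303 and 393 in TU3401, against controls of 168.5, 66.3 and 115.3. The array labelled ash-2 was thus the higher in all 4 strains, and the NR350 control array was the lowest of the 8. The excess of NR350 over the mean of the other strains was 1.54 ± 0.32 (SE, limma, adjusted p = 0.557), and the adjusted p lay between 0.169 and 1 over the alternatives. Across N2, VP303 and TU3401 alone, whose arrays are not shared with NR350, the asp-14 difference was 1.5 ± 0.16 (SE). Its adjusted p was 0.065 in limma, the smallest of all features, so 0 members were called in those strains. An unadjusted p under 0.05 was reached there by 6.84% of members on the higher side and 1.9% on the lower side, and by 3.2% and 3.92% of all features. The asp-14 adjusted p lay between 0.000309 (limma, without N2) and 0.997 (limma, no strain block), under 0.05 in 5 of the 10 alternatives.

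The next genes belong to the list of inducible gut immunity genes. C32H11.4 had 216 units on the NR350 array labelled ash-2 and 51.9 on the NR350 control array, 4.16-fold apart. In the other strains it had 107.5, 78.2 and 148.8 units on the arrays labelled ash-2 of N2, VP303 and TU3401, against 85.2, 43.6 and 70.4 on their control arrays. Its NR350 array labelled ash-2 stood above all 7 others. The excess of NR350 was 1.3 ± 0.31 (SE, limma, adjusted p = 0.74).

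F55G11.2 had 215.9 units on the NR350 array labelled ash-2 and 88.7 on the NR350 control array, 2.43-fold higher (log2 1.28). dod-24, first described as a gene acting downstream of the FOXO factor DAF-16, had 119.2 and 49.1 units on those arrays, also 2.43-fold. F55G11.8 had 177.8 and 87 units, 2.04-fold. For these genes the arrays of N2 went the other way, with log2 differences of -0.43 for F55G11.2, -0.17 for dod-24 and -0.35 for F55G11.8. Those of VP303 were 0.92, 0.78 and 0.77, and those of TU3401 were 0.66, 0.84 and 0.48. In RefSeq gene order C32H11.4, dod-24, F55G11.2 and F55G11.8 lie in 1 stretch of the genome. F55G11.8 and F55G11.2 have 1 protein-coding gene between them, and dod-24 has 6 between it and C32H11.4. Whether genes that differ cluster in general was not tested. Of 4323 directly adjacent pairs of member genes, 2 had both genes past 1.5-fold, abu-6 with abu-7 and endu-2 with kqt-2, and neither pair holds one of these 4 genes.

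E03H4.8 differed from these. It had 111 units on the NR350 array labelled ash-2 and 50.9 on the NR350 control array, 2.19-fold higher. The other 6 arrays lay between 37 and 59.5 units, with log2 differences of -0.06 in N2, -0.17 in VP303 and 0.19 in TU3401. A single array, the NR350 one labelled ash-2, was high. Its excess over the other strains was 1.14 ± 0.22 (SE, limma, adjusted p = 0.557).

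**Figure D2:**
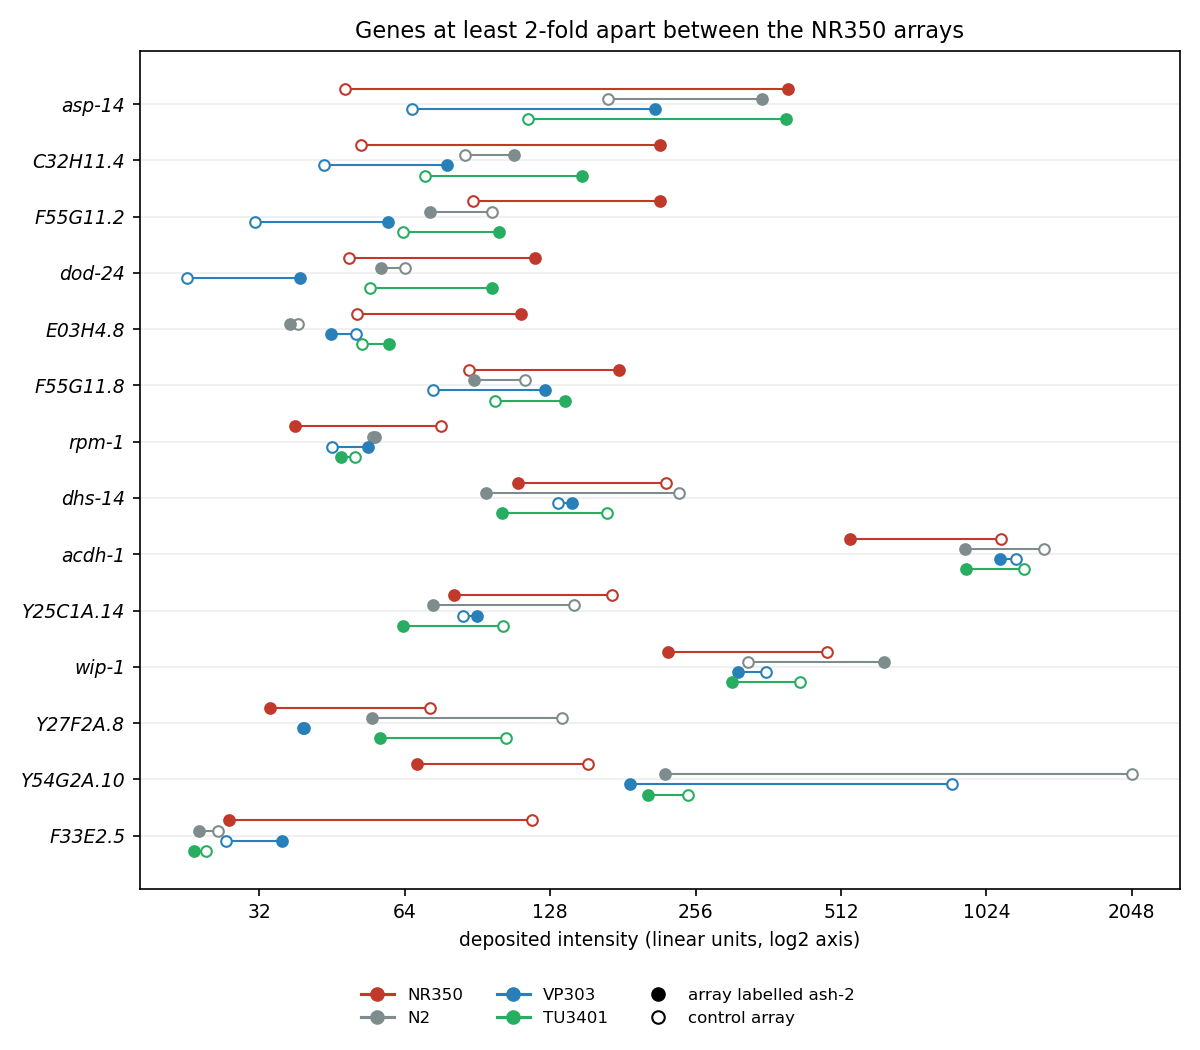
Deposited intensity (horizontal axis, linear units on a log2 axis) of the 14 genes at least 2-fold apart between the NR350 arrays, with a row of points for each of the 4 strains. Filled points are arrays labelled ash-2, open points control arrays, and a line joins the pair of a strain. For asp-14 the filled point is right of the open point in every strain, whereas for F33E2.5 the NR350 control array alone is far to the right.

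Among the genes lower on the array labelled ash-2, F33E2.5 stood apart. It had 27.6 units on the NR350 array labelled ash-2 and 117.7 on the NR350 control array, 4.26-fold lower (log2 -2.09). The other 6 arrays had 23.5 to 35.6 units. F33E2.5 passed the intensity minimum only through this control array, since its mean was 38.4 units over all 8 arrays and 27 over the other 7. The single high value was that of the NR350 control array, and the array labelled ash-2 was at the level of the other strains. NR350 differed from the mean of the other strains by -2.15 ± 0.22 (SE, limma, adjusted p = 0.0201). This was the only member called in that test, with 0 members higher (0%) and 1 lower (0.0129%). An unadjusted p under 0.05 was reached by 72 members on the higher side (0.931%) and 161 on the lower side (2.08%). Over all features 3 were lower (0.0108%) and 0 higher, with 2.17% and 2.14% of features at an unadjusted p under 0.05 on the higher and the lower side. The call was lost with no trend in eBayes (adjusted p = 0.829), with 16 units taken off (0.257) and with no strain block (0.216), and kept in the other 7 alternatives. These 7 include the fit over members only. F33E2.5 entered that fit only through its NR350 control array, so the fit over members is no support for the call. The test takes the spread among the other 3 strains, with 2 residual degrees of freedom, drawn by eBayes toward a trend over all features. It assumes that the lone NR350 pair varies as the other strains do.

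Y54G2A.10 had 67.7 units on the NR350 array labelled ash-2 and 153 on the NR350 control array, 2.26-fold lower (log2 -1.18). The other strains had more of it. N2 had 221 units on the array labelled ash-2 and 2055 on the control array, VP303 had 187 and 870, and TU3401 had 204 and 247. The difference was below 0 in all 4 strains, and both NR350 arrays were below all 6 others.

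A group of lower genes was also lower in N2 and TU3401, with VP303 near 0. acdh-1, an acyl-CoA dehydrogenase of the propionate shunt, had 533.6 units on the NR350 array labelled ash-2 and 1099 on the NR350 control array, a log2 difference of -1.04. The differences were -0.54 in N2, -0.11 in VP303 and -0.40 in TU3401. dhs-14, of the short-chain dehydrogenase family, had 109.9 and 222.9 units in NR350, with differences of -1.02 in NR350, -1.33 in N2, 0.10 in VP303 and -0.72 in TU3401. Y25C1A.14 gave -1.09 in NR350, -0.97 in N2, 0.10 in VP303 and -0.68 in TU3401, and Y27F2A.8 gave -1.1, -1.31, -0.01 and -0.87 in the same order. No part of this order among strains was tested.

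wip-1 and rpm-1 remained. wip-1, which encodes the partner of the actin regulator WASP, had 224.7 units on the NR350 array labelled ash-2 and 479.5 on the NR350 control array (log2 -1.09). In N2 it was on the opposite side, with 628.9 units on the array labelled ash-2 and 328.0 on the control array, while VP303 and TU3401 gave log2 differences of -0.20 and -0.47, on the side of NR350. NR350 differed from the other strains by -1.18 ± 0.46 (SE, limma, adjusted p = 1), and by -0.76 without N2. rpm-1, a ubiquitin ligase of nerve terminals, had 38 units on the NR350 array labelled ash-2 and 76.2 on the NR350 control array (log2 -1.0). The other 6 arrays lay between 45.4 and 55.7 units, so that for rpm-1 the 2 NR350 arrays lay on either side of all others. Its difference from the other strains was -1.06 ± 0.22 (SE, limma, adjusted p = 0.557).

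For all 6 genes at least 2-fold higher, the NR350 array labelled ash-2 was above the other 3 arrays labelled ash-2, and the NR350 control array was within the other controls for 5 and below them for 1, asp-14. Among the 8 genes at least 2-fold lower, the NR350 array labelled ash-2 was below the other arrays of that label for 5 and within them for 3. For these 8 the NR350 control array was above the other controls for 4, within them for 2 and below them for 2.

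The next genes lay below the 2-fold limit. Higher on the array labelled ash-2 were Y45G5AL.1 (log2 0.92), pcp-2, of the prolyl carboxypeptidase family (0.90), ash-2 itself, the lipid-binding protein gene lbp-2 (0.85) and the nudix hydrolase gene ndx-4 (0.85). They were followed by snr-5, a core protein of spliceosomal particles (0.83), the RNA-binding protein gene rbm-3.2 (0.82), perm-2, a protein of the eggshell permeability barrier (0.81), and iffb-1, a translation initiation factor (0.79). For snr-5 the NR350 array labelled ash-2 had 332.6 units and the NR350 control array 187.2, and the differences of the other strains were all below 0, at -0.09, -0.31 and -0.18 in N2, VP303 and TU3401. Lower on the array labelled ash-2 were sydn-1, needed for synapse development (-0.99), the FMRFamide-like neuropeptide gene flp-9 (-0.99), sgnh-1 (-0.99) and the transthyretin-related ttr-37 (-0.94). Also lower were the acyltransferase-like acl-12 (-0.92), the glutathione S-transferase gene gst-22 (-0.92) and the C-type lectin gene clec-51 (-0.92).

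The comparison with the other strains used arrays that NR350 does not share. Over members, the NR350 differences correlated with those of N2 at Pearson's r = 0.27, of VP303 at 0.02 and of TU3401 at 0.30 across genes, given as a description since genes are not independent. Of the 105 genes at least 1.5-fold lower in NR350, 73 (69.5%) were below 0 in N2, where 41.9% of all members were. In TU3401, 84 (80%) were below 0, against 44.1% of all members, and in VP303 37 (35.2%), against 37.4%. A total of 29 were also at least 1.5-fold lower in N2, where 1.78% of all members were, which is 27.6% of the NR350 list and 21% of the N2 list. The same count was 12 in TU3401, where 1.56% of members were, and 1 in VP303, Y54G2A.10, where 0.142% were. In all 3 strains 21 (20%) were below 0, against 8.87% of all members. The share below 0 was thus above that of all members in N2 and TU3401, and not in VP303.

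Of the 60 genes at least 1.5-fold higher in NR350, 42 (70%) were above 0 in N2, where 58% of all members were. The share was 66.7% in VP303, against 62.6% of all members, and 76.7% in TU3401, against 55.9%. In all 3 strains 21 (35%) were above 0, against 23.2% of all members. Those also at least 1.5-fold higher numbered 7 in N2, 11 in VP303 and 12 in TU3401, where 1.44%, 1.6% and 2.83% of all members were. These shares were not tested.

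**Figure D3:**
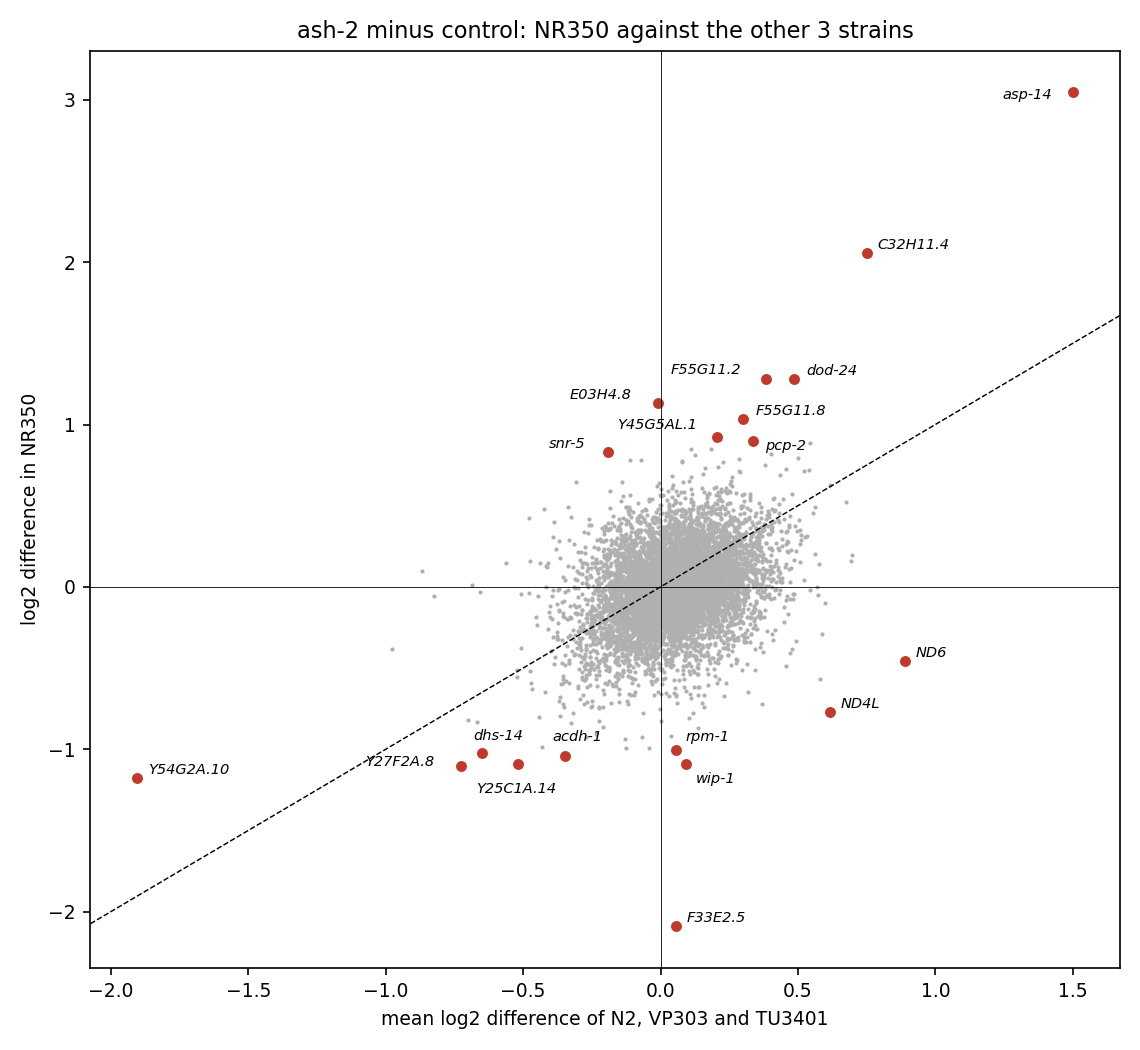
NR350 log2 difference (vertical axis) against the mean log2 difference of N2, VP303 and TU3401 (horizontal axis) for each member, array labelled ash-2 minus control array. The dashed line marks equal values. asp-14 and C32H11.4 lie high on the right, above the line, Y54G2A.10 lies at the far left, and F33E2.5, wip-1 and rpm-1 lie low near 0 on the horizontal axis.

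Several genes were singled out by their departure from the other strains and not by their size in NR350. The mitochondrially encoded complex I subunit ND6 had 60.7 units on the NR350 array labelled ash-2 and 83.3 on the NR350 control array. Its log2 difference was -0.46 in NR350, against 1.26 in N2, 0.40 in VP303 and 1.00 in TU3401. ND4L, of the same complex, gave -0.77 in NR350, against 1.41, -0.27 and 0.70 in N2, VP303 and TU3401. puf-3, a Pumilio-type RNA-binding protein of oocytes, had 294 units on the NR350 array labelled ash-2 and 435 on the NR350 control array, a difference of -0.57, and it was above 0 in the other strains, at 0.73, 0.46 and 0.55. NR350 was on the opposite side of 0 from all 3 other strains for ND6 and puf-3, and the departures of -1.35 ± 0.33 and -1.15 ± 0.25 (SE) did not pass the test (limma, adjusted p = 0.79 and 0.64). The departures of epic-2 (-1.09) and of abu-14 (-1.01) did not pass it either, nor did those of pix-1 (0.96), asm-3 (0.95), Y54F10AM.11 (0.90) and F42A10.6 (0.90). For pix-1, NR350 was almost level, with 48.3 units on the array labelled ash-2 and 45.2 on the control array.

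Muscle genes were described in 4 lists, since the labels place the RNAi in muscle. Of 29 sarcomere proteins, 21 were above 0 on the array labelled ash-2 (72.4%, against 49.4% of all members), with a median of 0.07 against -0.002 over all members. tni-3, a troponin I, was the highest at 0.56, atn-1, alpha-actinin of the dense bodies, gave 0.47, and unc-15, paramyosin of the thick filament, gave 0.39. unc-54 gave 0.35 and myo-3, the other body wall myosin, 0.24, while the actin gene act-4 was the lowest at -0.23. The array labelled ash-2 also had more unc-54 in N2 (659 and 279 units), VP303 (457 and 412) and TU3401 (593 and 543). The fold was larger in N2 than in NR350. For tni-3 the differences were -0.18 in N2, 0.14 in VP303 and -0.29 in TU3401. The sarcomere list had 0 members past 1.5-fold, and its median was 0.20 in N2, 0.13 in VP303 and -0.06 in TU3401. The NR350 median thus lay within the range of those of the other strains. Over all members the median was 0.048 in N2, 0.055 in VP303 and 0.038 in TU3401. List medians of those strains, here and below, are to be read beside these values.

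The attachment proteins, which anchor the filaments to the cell membrane, were split. Of 24 members, 11 were above 0 and the median was -0.03. alp-1, an ALP/Enigma protein of the dense body, had 162.9 units on the NR350 array labelled ash-2 and 105.8 on the NR350 control array (0.62), and pat-2, an alpha integrin, had 52.5 and 34.4 (0.61). Lower were unc-98, a zinc finger protein of the M-line, with 90.5 units on the array labelled ash-2 and 138.7 on the control array (-0.62), and pat-6, the actopaxin homologue, with 224 and 310 (-0.47). pat-2 was just above the intensity minimum, with a mean of 32.01 units, while F56B3.6, at 31.99, was just below it. It passed only through the NR350 array labelled ash-2, since the other 7 arrays averaged 29.1 units. Besides F33E2.5 and pat-2, this held for dig-1 and B0416.7 among the 165 genes past 1.5-fold. Among 9 members for excitation and calcium handling the median was 0.07, with the calcium pump gene sca-1 at 0.33 and the calcium channel subunit gene ccb-1 at -0.30.

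The list of muscle transcription factors and secreted matrix proteins had the highest median of the 4, 0.32 over 13 members, against 0.13 in N2, 0.12 in VP303 and 0.21 in TU3401. Its basement membrane members lay above 0 and its transcription factors below 0, a division read from the values, and the secreted guidance cue netrin, unc-6, lay at -0.22. let-2, a type IV collagen chain of the basement membrane, had 103.4 units on the NR350 array labelled ash-2 and 68.7 on the NR350 control array (0.59). lam-2, a laminin chain, had 140.7 and 94.2 (0.58), and emb-9, the other type IV collagen chain, 109.7 and 77.2 (0.51). The collagen-binding protein SPARC, ost-1, gave 0.47 and the laminin chain lam-1 0.46, and epi-1, fbl-1, nid-1 and mig-6, also matrix proteins, lay between 0.12 and 0.33. The myogenic factors unc-120 and hnd-1 gave -0.27 and -0.24. let-2 was almost as high in N2, at 0.57, and gave 0.18 in TU3401. In VP303, let-2 and emb-9 were at -0.04 and -0.21, and none of these matrix genes passed the test against the other strains. The NR350 arrays had more of several muscle transcripts than any other strain under either label: unc-54 was 1387 and 1086 units against 279 to 659 on the other 6 arrays. This was not particular to muscle. The gut gene ifb-2 had 510 and 534 units against 171 to 285, and act-5, gld-1 and pgl-1 were also highest on the NR350 arrays. The gut genes vha-6 and vit-2 were not. The part of this strain difference in the NR350 values was not tested.

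**Figure D4:**
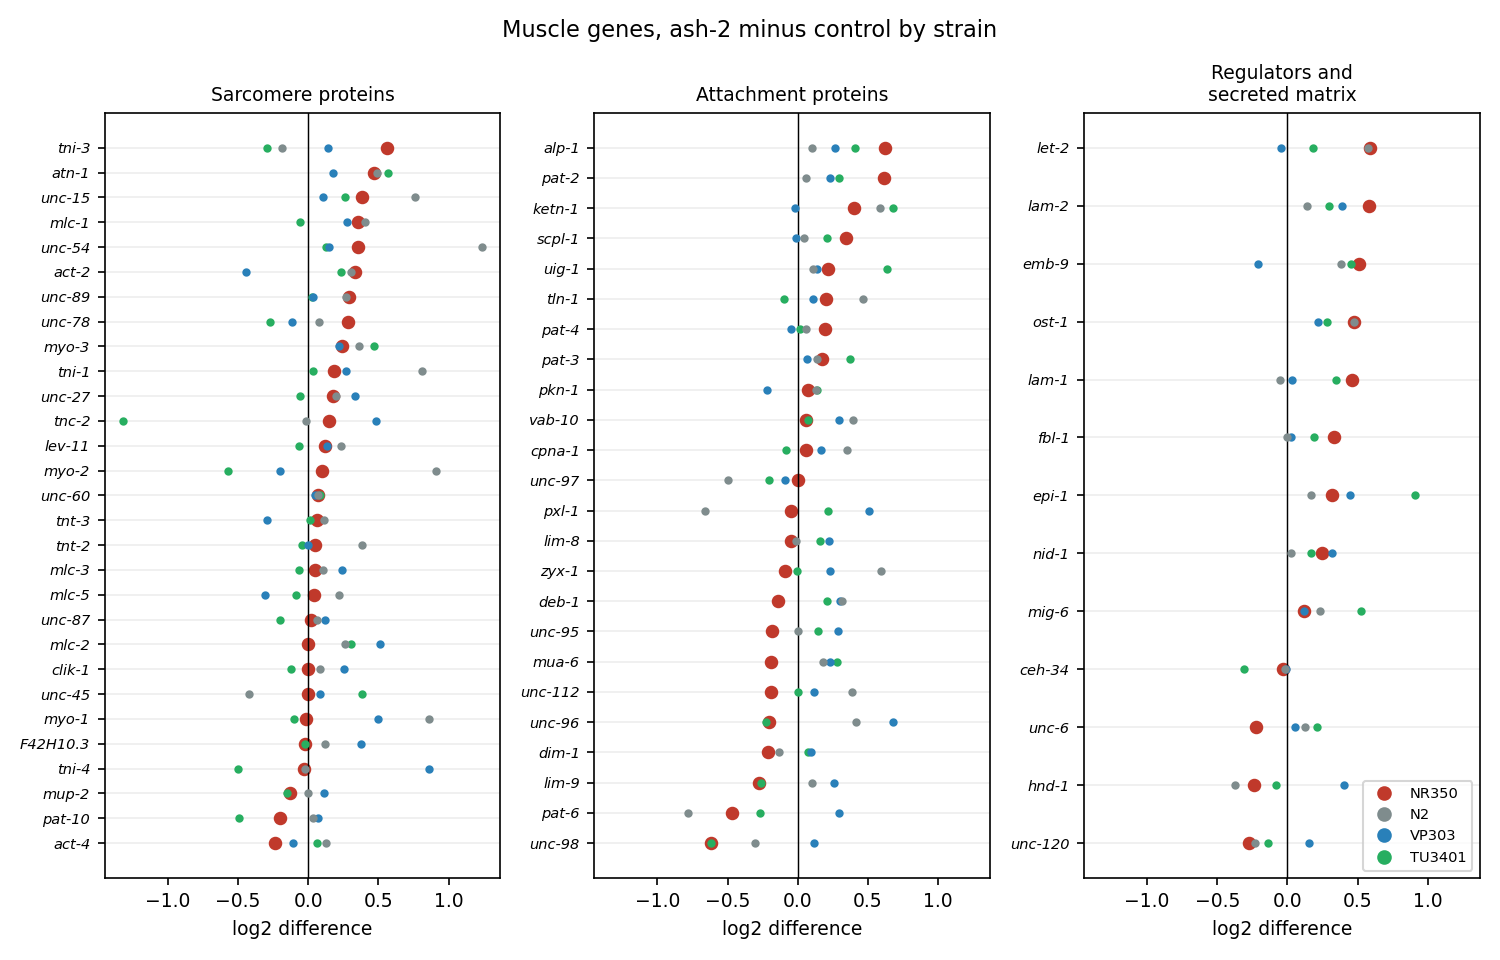
Log2 difference (array labelled ash-2 minus control array) of muscle-list genes in NR350 and in the other 3 strains, one row per gene. In NR350 the basement membrane genes let-2, lam-2 and emb-9 lie above 0.5, and unc-98 and pat-6 lie below -0.4.

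Gut genes lay on both sides of 0. Of 18 inducible gut immunity genes, 15 were above 0 in NR350 (83.3%, against 49.4% of all members), and 5 were past 2-fold, C32H11.4, F55G11.2, dod-24, E03H4.8 and F55G11.8. The lists were chosen with earlier results of these data known, so this share is a description only. The lowest was C17H12.8 at -0.33. The median of the list was 0.13 in NR350, against 0.10 in N2, 0.55 in VP303 and 0.24 in TU3401, so that its large values came from a few genes. Of 8 aspartyl proteases, 5 were above 0, with a median of 0.03, asp-14 at the top and asp-13 lowest at -0.57. Of 24 genes of intestinal identity and the brush border, 8 were above 0 (33.3%), with the cathepsin B-like protease gene cpr-1 at -0.52, the intermediate filament gene ifp-1 at -0.44 and the proton exchanger gene nhx-2 at 0.37. elt-2, the GATA factor of the intestine, had 126.6 units on the NR350 array labelled ash-2 and 111.5 on the NR350 control array, and ges-1, a gut esterase, had 38.3 and 43.4. Among other defence families, 5 of 6 lysozymes were above 0, with lys-8 at 0.69 and lys-4 at -0.57, and 14 of 41 C-type lectins were (34.1%). None of the 26 genes of the intracellular pathogen response was above the intensity minimum.

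Most genes of the cytosolic ribosome, the respiratory chain and tRNA charging lay above 0. Of 71 cytosolic ribosomal protein genes, 62 were above 0 (87.3%), with a median of 0.15 in NR350 against 0.12 in N2, 0.02 in VP303 and -0.02 in TU3401. Of 42 nuclear-encoded respiratory chain genes, 34 were above 0 (81.0%), with a median of 0.17, and mev-1, a subunit of succinate dehydrogenase, was highest at 0.56. In N2, VP303 and TU3401, 30, 31 and 22 of the 42 were above 0, with medians of 0.11, 0.09 and 0.005. Of 32 aminoacyl-tRNA synthetases, 23 were above 0, with a median of 0.19, against 0.08, 0.10 and 0.33 in N2, VP303 and TU3401. glp-4, the valyl-tRNA synthetase, had 620 units on the NR350 array labelled ash-2 and 374.5 on the NR350 control array (0.73). Of 63 mitochondrial ribosomal proteins, 25 were above 0, with a median of -0.03, so the mitochondrial ribosome did not share the direction of the cytosolic one.

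Most genes for secreted peptide signals lay below 0. Of 55 FLP and NLP neuropeptide genes, 15 were above 0 (27.3%), with a median of -0.14 in NR350 against 0.11 in N2, 0.18 in VP303 and -0.36 in TU3401. The list was drawn by gene name and holds nlp-33 (-0.47), nlp-24 (-0.25) and nlp-34 (0.25), which were also listed as epidermal antimicrobial peptides. flp-9 had 79.6 units on the NR350 array labelled ash-2 and 158.3 on the NR350 control array, and the control array was above all 7 others. nlp-35 gave -0.62 and nlp-80, the highest, 0.30. The insulin-like peptides had a median of -0.13 over 11 members, 0.11 in N2, 0.29 in VP303 and -0.34 in TU3401. NR350 and TU3401 were thus below 0 and N2 and VP303 above 0 in both lists. The synaptic and neurotransmitter genes had a median of 0.02 over 14 members. Of the genes that mark neurons, unc-119 had 79.5 units on the NR350 array labelled ash-2 and 77.1 on the NR350 control array. rab-3 had 57.5 and 65.3 units on those arrays (-0.18), and snb-1 gave 0.02.

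Cuticle genes of the body-shape collagens were above 0 for 4 of 11 members, with sqt-3 lowest at -0.78 (880 units on the NR350 array labelled ash-2 and 1509 on the NR350 control array). The 55 col collagens had a median of 0.07. The abu and pqn genes, which encode glutamine- and asparagine-rich proteins, formed a list chosen after their values were seen. Of 33, 10 were above 0 (30.3%), and abu-14, abu-7 and abu-6 gave -0.87, -0.81 and -0.75. For abu-7 the NR350 array labelled ash-2 had 124.2 units and the NR350 control array 217.6, against 32.6 to 53.0 on the other 6 arrays, so both NR350 arrays were high.

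**Figure D5:**
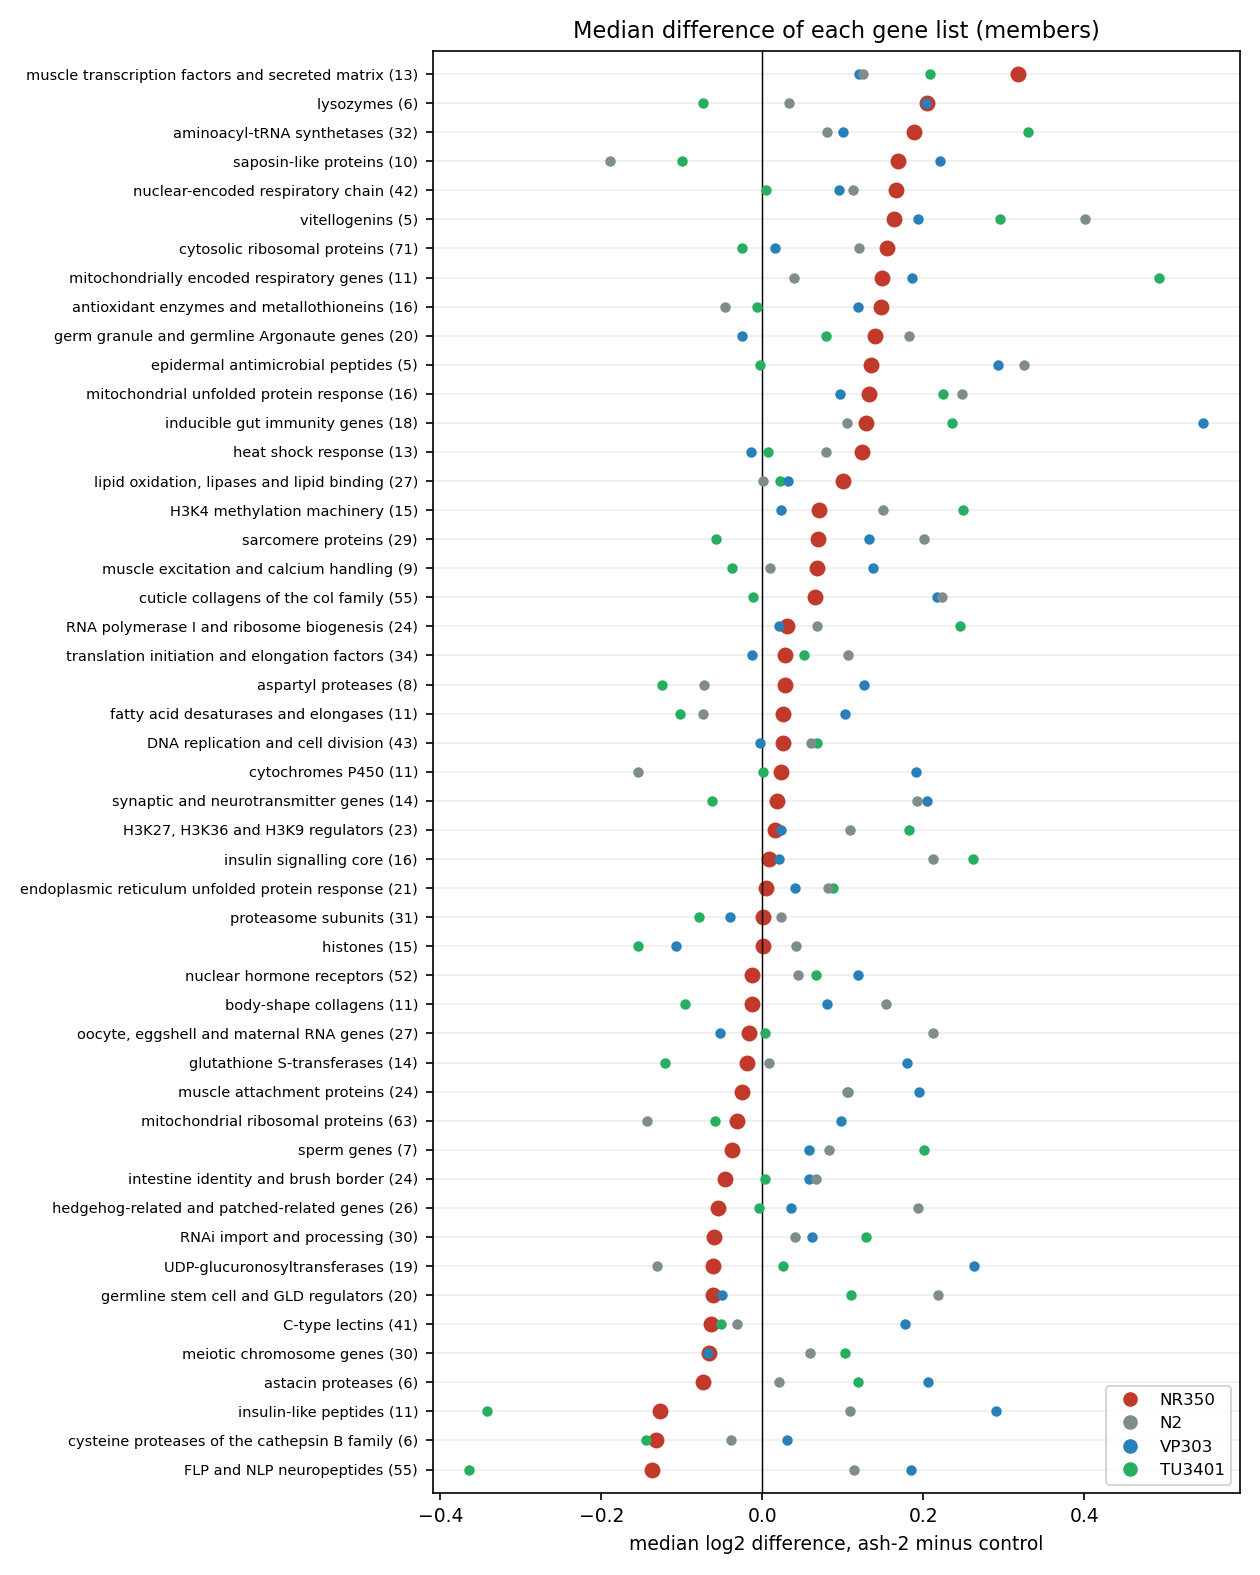
Median NR350 log2 difference (array labelled ash-2 minus control array) of the gene lists beside the medians of N2, VP303 and TU3401, one row per list. Ribosomal, respiratory and tRNA synthetase lists lie above 0 in NR350, and the neuropeptide list lies at -0.14.

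The germline lists lay on both sides of 0. Germ granule and Argonaute genes were above 0 for 16 of 20 members (median 0.14), against 18, 8 and 16 in N2, VP303 and TU3401. Meiotic chromosome genes were above 0 for 11 of 30 (median -0.07, htp-1 lowest at -0.69), against 19, 7 and 18 in those strains. Germline stem cell regulators were for 7 of 20 (median -0.06), against 14, 9 and 14. In the last list, glp-1, the Notch receptor of germline stem cells, had 74.7 units on the NR350 array labelled ash-2 and 118.2 on the NR350 control array (-0.66), and lag-1, the transcription factor of the same pathway, had 446.8 and 261.6 (0.77). Receptor and factor thus differed in opposite directions. Of 27 oocyte, eggshell and maternal RNA genes, 12 were above 0, perm-2 being the highest. The germ line markers other than glp-1 differed less and lay on both sides of 0. pgl-1 had 671 units on the NR350 array labelled ash-2 and 583 on the NR350 control array (0.20). gld-1 gave 0.07 and fbf-2 -0.21.

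Among 15 genes of the H3K4 methylation machinery, 9 were above 0, with a median of 0.07, against 0.15 in N2, 0.02 in VP303 and 0.25 in TU3401. ash-2 itself was the highest at 0.89, spr-5, an H3K4 demethylase, gave 0.30, and set-16, the MLL3/4-type methyltransferase, was lowest at -0.37, with 126.6 units on the NR350 array labelled ash-2 and 163.0 on the NR350 control array. Of 23 genes in a list of chromatin regulators compiled for H3K27, H3K36 and H3K9, 13 were above 0, with lin-35, the retinoblastoma homologue, at 0.48 and set-26 at -0.67. The 30 genes of RNAi import and processing had a median of -0.06, with nrde-2 at 0.27 and sid-3 at -0.42. None of these lists held a gene called in the test against the other strains.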

How the data were processed

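The authors used GeneChip Command Console 2.0 for the scans of the Affymetrix C. elegans Gene 1.0 ST arrays and GeneSpring GX 11.0.2 for their import, as the series' design text states. RMA was used per the submitters' processing notes, and no source used here gives its level of summarisation or an offset. The deposited values are normalized intensity values on a linear scale, 1 per feature and array, with a floor near 18 and array medians of 21.1 to 21.6 units. They carry no spread within an array, so the number of arrays limits the precision.

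Log2 was taken with nothing added. Features were named through the platform annotation: 25546 had 1 symbol, 646 several and 1600 none, and 25495 gene identifiers were found in the RefSeq table of WBcel235, used for names, biotypes and gene order. Where a gene had several features, the brightest stands for it. In the lists, 774 genes were named singly and 63 of them were not matched.

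NR350 was described by log2 differences. Two-sided limma 3.58.1 fits in R 4.3.3, with strain as a block and eBayes with a trend, compared the NR350 difference with that of the other strains (8 arrays) and tested the treatment in N2, VP303 and TU3401 (6 arrays). Benjamini-Hochberg adjustment ran over all 27792 features, with a threshold of 0.05. No label names separate cultures, so p-values measure the spread between strains and not between cultures. The eBayes step draws the spread of each feature toward a trend over all features, and the SE given are of this moderated spread.

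Named genes were ash-2, the genes that mark the strains, the 15 highest and 15 lowest NR350 differences, the 8 highest and 8 lowest departures from the other strains, list extremes, muscle genes past 1.5-fold and features called. Other list members are named as examples after their values were seen. Members and lists were chosen with earlier results of these data known. Alternatives covered normalization, centring, the floor, the intensity minimum, the fold, eBayes settings, each strain left out and the block.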

Additional observations from a re-analysis of the deposited data

Results flagged for a closer look

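In the limma test of NR350 against the other 3 strains, 3 of 27792 features were called (0.0108%), all lower, and 0 higher, while 603 features on the higher side and 595 on the lower reached an unadjusted p under 0.05. F33E2.5 departed by -2.15. The other 2 features have no symbol and a mean of 21.1 units, near the floor, and they departed by -0.77 and -0.75 (limma, adjusted p = 0.0047 each). For each of the 3 the NR350 control array was the high one.

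Of 8693 features above 32 units, 7732 were members, of which 0.0776% were at least 2-fold higher and 0.103% lower. Among the rest, which are not protein-coding features with 1 symbol, 5 were at least 2-fold higher on the NR350 array labelled ash-2 than on the NR350 control array. They were the non-coding RNA C12D8.24 at 2.06-fold and 4 features with several symbols, left unnamed, at 3.76, 3.78, 3.79 and 3.90-fold. Of these 5, the 2 at 3.76 and 3.78-fold are near-identical on all 8 arrays (log2 values within 0.05) and repeat 1 signal. For each of the 4 with several symbols, both NR350 arrays were below all arrays of the other strains. The feature at 3.90-fold had 525 and 134.6 units in NR350, against 675 to 2477 elsewhere. Log2 differences of the 4 were 1.02 to 1.33 in VP303, 0.28 to 0.85 in TU3401 and -0.12 to 0.08 in N2. Another 21 were at least 2-fold lower, 8 of them near-identical to another feature. By kind, 4 of 304 features with several symbols were higher and 10 lower. Of 341 features with no symbol 0 were higher and 5 lower, and of 239 non-coding RNA features 1 was higher and 4 lower. These shares are larger than those of members. With 1 array per treatment these have no test.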

How the results depend on the processing

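The 14 genes at least 2-fold apart in NR350 numbered 10 to 15 under quantile normalization, centring, a doubled or absent intensity minimum and the 2 other means tried, of which the mean of log2 values was chosen after seeing the data. With 16 units taken off they numbered 39 (12 higher, 27 lower), at 1.5-fold 165 (60 higher, 105 lower), and with all biotypes 14 were lower. The count called against the other strains was 3, and it was 0 with no trend in eBayes, 6 with a robust prior, 5 at a threshold of 0.10 and 1 in a fit over the members. Leaving out each other strain gave 3 to 6, the 6 without TU3401. F33E2.5 stayed at -2.15 with no trend and with no strain block, and was -3.19 with 16 units taken off, past the threshold in none of these (limma, adjusted p = 0.829, 0.216 and 0.257). Leaving out each strain gave -2.24 to -1.99. For N2, VP303 and TU3401 the count was 0 (at an unadjusted p under 0.05, 890 on the higher side and 1090 on the lower). It was 1 with centring, 1 with a robust prior, 2 at 0.10 and 2 over the members, and 0 to 116 with each strain left out, 5 without N2 and 116 without TU3401. The cause of these changes was not tested. Of 127 differences of named genes and 49 list medians, 17 and 1 moved with 16 units taken off, and 2 and 0 with quantile normalization. The medians of glutathione S-transferases and histones changed sign there, both within 0.02 of 0. The arrays are paired by strain, which is the block in both fits, and without it 2 features were called against the other strains and 0 in N2, VP303 and TU3401.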
